A study of Mus musculus with 4 samples.

Results

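The genes described here are 37 genes of apoptosis, the regulated death of a cell, listed by symbol: the Bcl2 family, caspases, death receptors with their adaptors, inhibitors of apoptosis, proteins released from mitochondria, and nucleases. A probe set with that symbol alone was present for 33 of the 37 genes. Bax, Bnip3l, Ripk1 and Trp53 were left out for lack of one. These 33 genes had 49 probe sets besides 1 control probe set for Fas, and 25 of them had a probe set bright enough to be tested, with 34 tested probe sets in all. Across the whole array, 8251 genes were named and 5692 were tested.

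The samples were 2 heterozygous pools and 2 wild-type pools of mouse hearts, each put on its own 1-colour oligonucleotide array as total RNA of the whole organ. Mice were adult males (129/Black Swiss background, 8 to 16 weeks old), with 5 hearts to a pool, and genotype is what the labels give as the difference between the groups. The comparison asks which transcripts differ in level between the genotypes. The labels do not say that the pools of a genotype came from separate animals beyond their number. The p-values therefore rest on the spread between these 4 samples, moderated toward that of other probe sets of like signal. Pools vary less than single hearts do.

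In the intrinsic route of apoptosis, Bcl2 family proteins decide whether the outer membrane of mitochondria is opened. Cytochrome c that leaves then assembles with Apaf1 into the apoptosome, which activates caspase 9. In the extrinsic route, ligand-bound death receptors such as Fas recruit Fadd and caspase 8, and caspase 8 can cut Bid to engage mitochondria as well. Adult heart muscle cells rarely divide and are replaced little, while developing T cells of the thymus die by apoptosis in large numbers. RNA levels do not show whether a protease is active.

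Of the 25 tested genes, counted by their brightest tested probe set, 9 were lower and 2 were higher in the heterozygous pools, and 14 did not pass (limma, Benjamini-Hochberg adjusted p under 0.05 over 7453 probe sets). Those that fell were Bid, Pdcd4, Fas, Casp8, Apaf1, Casp6, Birc3, Bcl2 and Casp2, and those that rose were Bnip3 and Aifm1. Over all 5692 tested genes, 19.5% were called lower and 19.5% higher, so that 39.0% were called, against 44% of the apoptosis genes. Lower calls made up 36% of the apoptosis genes and higher calls 8%. Their median log2 change, heterozygous minus wild type, was -0.40, beside 0.02 for all tested genes. In 20 of the 25 genes the genotypes did not overlap, with the heterozygous pools lower in 16 (34.5% of all tested genes) and higher in 4 (36.2%). Over all tested genes 70.7% were without overlap. Counts by role were 1 higher and 2 lower of 8 in the Bcl2 family, 4 lower of 5 among caspases and Apaf1, and 1 lower of 4 in the death receptor arm. Median log2 changes of these roles were 0.06, -0.96 and -0.34. Differences between the roles were not tested. Bid, Casp8, Casp6 and Endog had a heterozygous mean under the signal limit for testing and a wild-type mean above it, and 0 genes had the reverse. Such genes could only appear lower, so these counts and medians describe the genes tested and not the whole list.

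**Figure D1:**
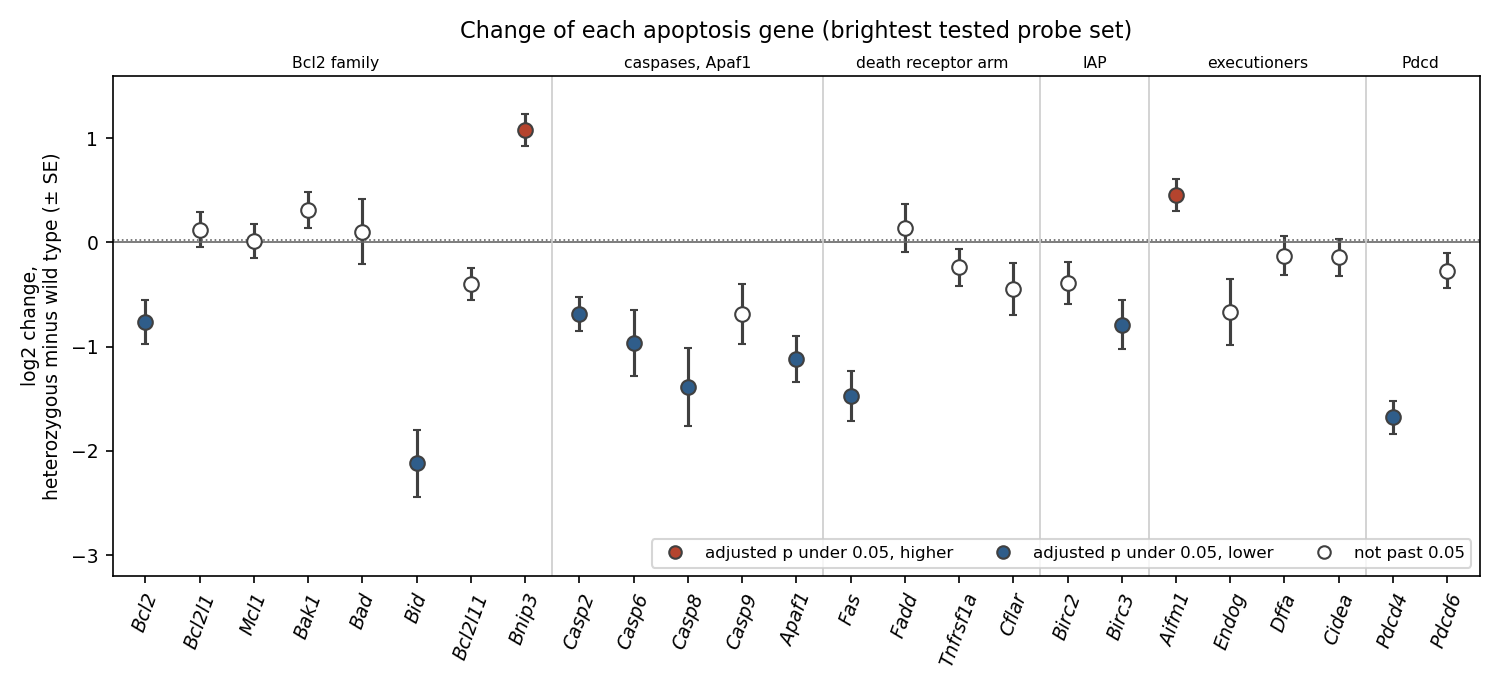
Log2 change, heterozygous minus wild type, of the 25 tested apoptosis genes by role, with limma's standard error. Filled points passed an adjusted p of 0.05, and the dotted line marks the median of all tested genes (0.02). Bid lies lowest at -2.12 and Bnip3 highest at 1.08, and 4 of the 5 genes in the caspase section are filled as lower.

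Markers of several other cell types moved in the same samples, where 19.5% of all tested genes were called lower and 19.5% higher. All 12 tested T cell and thymus markers fell, with a median log2 change of -3.16, and their summed signal was 14014 and 13589 in the heterozygous pools against 126380 and 125930 in the wild-type pools. None of the 12 was listed at 0 in a pool. Cd8b1 and Cd8a, of the T cell coreceptor CD8, had log2 changes of -5.16 and -3.51, and Rag1, which cuts antigen receptor genes, had one of -3.08. All 18 tested cell cycle genes fell too (median -2.46). Of these markers, Ptcra (68.3 and 132 in the heterozygous pools) had a heterozygous mean under the signal limit for testing. So did Aurka (169.4 and 169.1), Aurkb (107.9 and 358.1) and Top2a (348 and 285.3). Such markers were tested only through their wild-type pools and could only appear lower. The counts and medians of both lists therefore describe the markers tested. Cardiomyocyte markers were bright in every pool, and 7 of 8 rose (median 0.63), as did 6 of 7 endothelial markers (median 0.85) and 5 of 6 fibroblast and matrix markers (median 0.82). Of 5 tested B cell markers 4 fell (median -0.97), with a summed signal of 4016 and 3709 in the heterozygous pools against 9088 and 9074 in the wild-type pools. Among those that fell, Cd22 had 385.7 and 257.1 in the heterozygous pools, with a mean under the limit for testing. It was tested only through its wild-type pools (603.3 and 631.8) and could only appear lower. Its log2 change of -0.97 was also the median of these 5 markers. Of 6 tested myeloid markers 1 fell (median -0.07), which is near the share of all tested genes called lower. Both tested lung epithelium markers rose, Sftpc with a log2 change of 2.25 and Scgb1a1 with one of 1.32, and their summed signal was 54361 and 46798 in the heterozygous pools against 21432 and 18437 in the wild-type pools. Of 2 erythroid markers 1 rose (median 0.57), and the 2 adipose tissue markers did not pass (limma; 0 had an unadjusted p under 0.05). In whole tissue, fewer cells of a type and less RNA per cell cannot be told apart, and the part of these cells in the changes below was not tested.

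**Figure D2:**
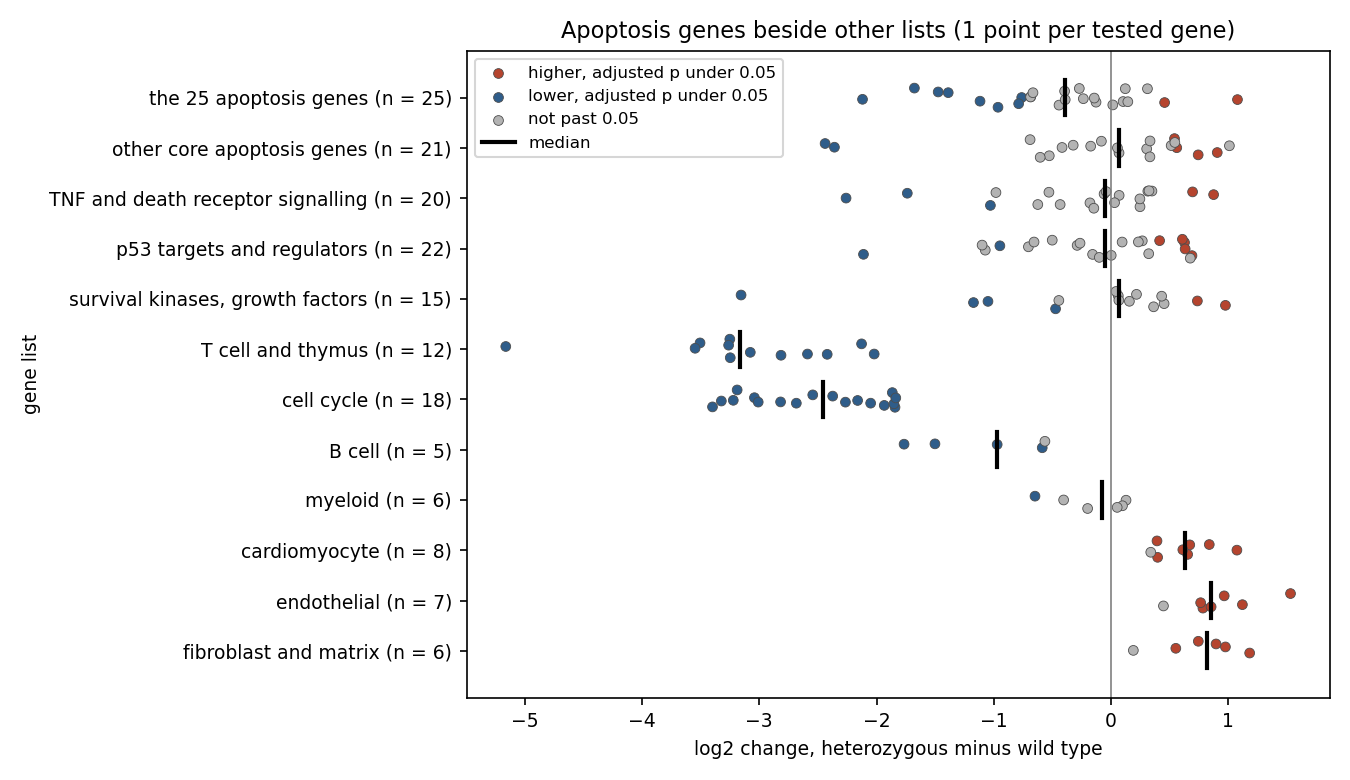
Log2 change, heterozygous minus wild type, of every tested gene of the apoptosis list and of 4 further signalling lists and 7 marker lists, with the median of each list as a bar. The apoptosis genes have their median at -0.40. T cell and thymus markers have theirs at -3.16, and cardiomyocyte markers at 0.63.

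Calls of 5 genes held in every way of analysis in which the gene was tested: Bid, Fas, Apaf1 and Pdcd4 as lower and Bnip3 as higher. The other 6 calls (Casp8, Casp6, Casp2, Bcl2, Birc3 and Aifm1) were lost when the dim ones were also tested, among other alternatives named with each gene. The 250 bases before the start of transcription are shown for 4 of these, so that a reader can see what sequence lies before genes that moved most stably. Pdcd4 has 2 starts in the table, and the probe set does not say which was used. They are from RefSeq on GRCm38.p6, in which 35 of the 37 genes were matched, each 5′ to 3′ on the strand of the gene. The positions are chr6:120916825-120917074 (minus strand) for Bid, chr19:34290409-34290658 (plus strand) for Fas, chr10:91082744-91082993 (minus strand) for Apaf1 and chr7:138909507-138909756 (minus strand) for Bnip3. Capitals mark matches, on either strand, to ACGTG (the core of the hypoxia response element), GGGCGG (the GC box), CCAAT, and the E2F sites TTTCCCGC and TTTGGCGC.
Bid: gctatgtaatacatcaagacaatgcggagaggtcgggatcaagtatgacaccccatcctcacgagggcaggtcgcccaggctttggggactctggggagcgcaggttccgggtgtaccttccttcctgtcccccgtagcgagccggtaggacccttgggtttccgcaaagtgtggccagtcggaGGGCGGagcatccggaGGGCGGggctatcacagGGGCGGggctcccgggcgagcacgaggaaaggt
Fas: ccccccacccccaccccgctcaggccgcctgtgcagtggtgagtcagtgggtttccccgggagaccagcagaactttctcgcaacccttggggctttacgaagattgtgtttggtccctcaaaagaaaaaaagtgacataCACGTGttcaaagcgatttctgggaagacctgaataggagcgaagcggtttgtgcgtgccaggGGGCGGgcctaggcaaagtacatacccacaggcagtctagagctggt
Apaf1: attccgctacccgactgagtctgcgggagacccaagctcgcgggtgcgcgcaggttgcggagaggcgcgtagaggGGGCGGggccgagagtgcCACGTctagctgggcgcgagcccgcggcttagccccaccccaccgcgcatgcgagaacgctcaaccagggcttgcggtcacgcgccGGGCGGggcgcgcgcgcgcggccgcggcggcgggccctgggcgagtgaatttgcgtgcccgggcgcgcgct
Bnip3: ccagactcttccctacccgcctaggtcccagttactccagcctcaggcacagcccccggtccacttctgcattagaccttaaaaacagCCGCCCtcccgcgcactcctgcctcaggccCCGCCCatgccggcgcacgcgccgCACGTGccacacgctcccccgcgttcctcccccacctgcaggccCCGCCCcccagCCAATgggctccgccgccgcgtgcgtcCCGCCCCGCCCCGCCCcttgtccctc
Before Bid there were 3 GC boxes. Before Fas there was 1 GC box and 1 CACGTG, which holds ACGTG on both strands and so counts as 2 overlapping matches. Apaf1 had 1 ACGTG and 2 GC boxes. Bnip3 had 1 CACGTG, 1 CCAAT and 6 GC boxes, the last of which share bases with each other. Of 32851 promoter windows of this length, 32.7% held a GC box, 33.8% a CCAAT and 16.6% an ACGTG. The E2F letters were in 0.895% and 0.417% of the windows and in none of these 4. A match describes the letters and is not evidence of binding.

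Among the Bcl2 family, the largest difference was that of Bid, which carries a death signal from caspase 8 to mitochondria. Bid had signals of 183.1 and 182 in the heterozygous pools against 808.4 and 778.6 in the wild-type pools. The genotypes lay far apart, and pools of 1 genotype lay close together. Bid was 4.35-fold lower in heterozygous pools (log2 change -2.12, SE 0.32, adjusted p = 0.00126). Probe sets with a mean signal under 348.95 over the 4 pools were not tested, and Bid was tested only through its wild-type pools, since its heterozygous mean (182.6 ± 0.778, against 793.5 ± 21.1 in wild type; SD, n = 2 each) lay under that limit. The fold therefore rests on a dim heterozygous signal, and with dim probe sets tested as well the adjusted p was 0.0333. Without any single pool its log2 change stayed between -2.15 and -2.09.

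Bnip3, a mitochondrial protein that takes part in cell death and in the removal of mitochondria, went the other way. It had signals of 5291.6 and 4787.3 in the heterozygous pools against 2417.6 and 2351.1 in the wild-type pools. Every heterozygous pool was above every wild-type pool, a 2.11-fold increase (log2 change 1.08, SE 0.15, adjusted p = 0.000824). With arrays centred on the sarcomere genes, which lowers every gene alike, its log2 change was 0.39 and still passed (adjusted p = 0.0498).

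Pro-survival members restrain Bax and Bak1, the proteins that form pores in the mitochondrial membrane. Bcl2, the founding member, had 766.4 and 1018.7 in the heterozygous pools against 1566.6 and 1433.5 in the wild-type pools on its brightest probe set. It fell 1.70-fold there (log2 change -0.76, SE 0.21, adjusted p = 0.0188). This no longer passed without heterozygous pool 1 (-0.56) or wild-type pool 1 (-0.70). The 3 probe sets of Bcl2 disagreed. The dimmest fell 2.39-fold (221.4 and 238.8 in heterozygous pools against 561.9 and 535.6 in wild-type pools, adjusted p = 0.0189). Its heterozygous mean of 230.1 lay under the limit of 348.95 for testing. This probe set was tested only through its wild-type mean of 548.75 and could only appear lower. The third overlapped between genotypes, with 1060.6 and 1267 in the heterozygous pools against 973.1 and 1258.8 in the wild-type pools (log2 change 0.07, SE 0.21).

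Bcl2l1, which encodes Bcl-xL, overlapped between genotypes, at 4927.5 and 3849 in the heterozygous pools against 4152.3 and 3860 in the wild-type pools (log2 change 0.12, SE 0.17, adjusted p = 0.609). Mcl1, another pro-survival member with a short-lived protein, had 5940.8 and 6126.1 in the heterozygous pools against 5283.6 and 6748.8 in the wild-type pools, again with overlap (log2 change 0.01, SE 0.16, adjusted p = 0.952). Neither passed, and the sign of both values turned in some alternatives.

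Bak1 had 1668.9 and 1807.5 in the heterozygous pools against 1365.3 and 1437 in the wild-type pools. These values did not overlap, yet the log2 change of 0.31 (SE 0.17, adjusted p = 0.182) did not pass; it passed with arrays shifted to a common median (0.49). Bcl2l11, or Bim, a BH3-only protein that sets off the death of lymphocytes among other cells, had 2592.3 and 2564.6 in the heterozygous pools against 3197 and 3601.2 in the wild-type pools. Its log2 change was -0.40 (SE 0.16, adjusted p = 0.0736), and a dimmer probe set gave -0.71 (adjusted p = 0.0989). Averaging its tested probe sets brought the gene past the threshold (-0.55). Bad, whose protein is held inactive by phosphorylation, had probe sets with log2 changes of 0.10 and -0.31, and neither passed.

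Ratios within an array are unaffected by a shift of the whole array. Measured so, the log2 ratio of Bcl2l1 to Bid was higher by 2.24 in the heterozygous pools, that of Bcl2 to Bid by 1.36 and that of Cflar to Casp8 by 0.95. In each of these 3 pairs both heterozygous pools were above both wild-type pools, but an exact two-sided permutation test of 2 pools against 2 cannot give less than p = 0.333, which all 3 had. Under quantile normalization and cyclic loess, which act differently on bright and dim probe sets, the first ratio was higher by 2.10 and 2.06, the second by 1.38 and 1.34 and the last by 0.95 and 0.96. Bid and Casp8, by which all 3 ratios divide, passed the signal limit for testing only through their wild-type pools. That selection favours higher ratios in the heterozygous pools under every scaling, so the ratios describe the values and are no separate evidence. A ratio shows unequal change of the members and not which of them moved.

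**Figure D3:**
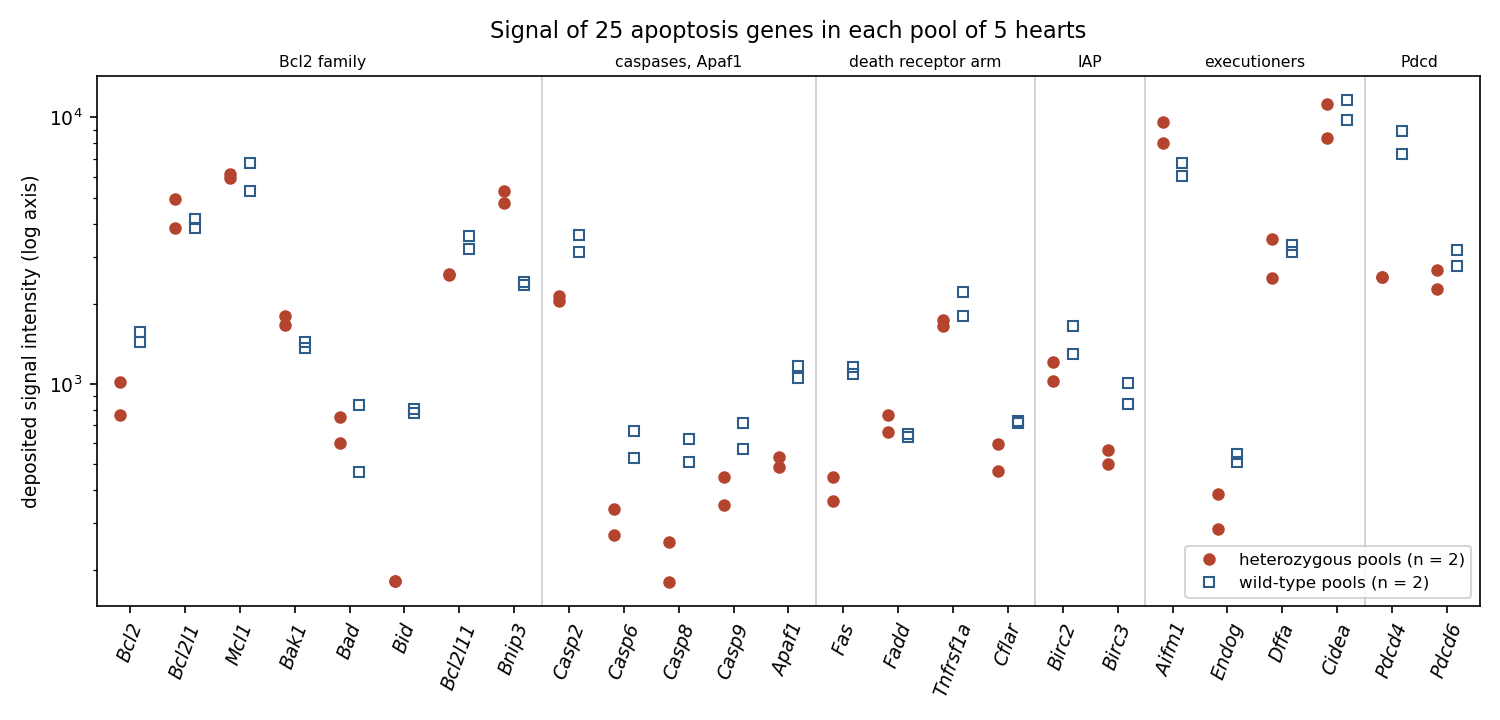
Deposited signal of the 25 tested apoptosis genes in each pool, on a log axis, with heterozygous pools as filled circles left of wild-type pools as open squares. For Bid, Apaf1, Fas and Pdcd4 the circles lie well below the squares, and for Bnip3 above them. Signals of different genes come from different probes and are not comparable in level.

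Caspases are the proteases that carry out apoptosis, and 4 of 5 tested genes of the caspase and apoptosome group fell, where 19.5% of all tested genes did. Of these 4, Casp8 and Casp6 were tested only through their brighter wild-type pools, so the count is a description of the genes that passed the filter. Casp8, the initiator of the extrinsic route, had 181.2 and 255.1 in the heterozygous pools against 509.8 and 621.8 in the wild-type pools. This was a 2.62-fold decrease (log2 change -1.39, SE 0.37, adjusted p = 0.0174). Its heterozygous mean of 218.2 was below the limit of 348.95 for testing, which the gene passed through its wild-type mean of 565.8. The call ended with dim probe sets tested as well (adjusted p = 0.0973) and without heterozygous pool 1 (-1.14), wild-type pool 1 (-1.53) or wild-type pool 2 (-1.25).

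Apaf1, the scaffold of the apoptosome, had 534.1 and 489.8 in the heterozygous pools against 1053.8 and 1168.7 in the wild-type pools. The groups were clearly apart, a 2.17-fold decrease (log2 change -1.12, SE 0.22, adjusted p = 0.00410). Casp9, which Apaf1 activates, had 351.2 and 448.5 in the heterozygous pools against 569.2 and 716.7 in the wild-type pools on its brightest probe set and did not pass (log2 change -0.69, SE 0.29, adjusted p = 0.0937). Its other tested probe sets had log2 changes of 0.02 and 0.16 with overlapping pools, so the probe sets of Casp9 disagreed.

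Casp2, an initiator caspase also linked to DNA damage, had 2045.8 and 2142.2 in the heterozygous pools against 3124.3 and 3625.4 in the wild-type pools. This 1.61-fold decrease passed (log2 change -0.68, SE 0.16, adjusted p = 0.0101). Its dimmer probe set gave a like value that did not pass (-0.70, adjusted p = 0.0720). The call ended without heterozygous pool 1 (-0.65), heterozygous pool 2 (-0.72) or wild-type pool 2 (-0.58). Casp6, an executioner caspase, had 272.1 and 341.3 in the heterozygous pools against 529.5 and 667.6 in the wild-type pools. Its 1.95-fold decrease (log2 change -0.96, SE 0.32, adjusted p = 0.0410) did not pass when any one of the 4 pools was left out (-1.13 to -0.80), nor under quantile normalization (-0.81), a common median (-0.78) or cyclic loess (-0.87). Beside this group, the T cell and thymus markers had a median log2 change of -3.16.

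The inflammatory caspases were dim and were not tested. Casp1, which matures interleukin 1 beta, had 250.1 and 174.3 in the heterozygous pools against 423.7 and 390.4 in the wild-type pools, without overlap. Casp4 had 114.8 and 244.5 in the heterozygous pools against 212.5 and 306.3 in the wild-type pools. Casp12, studied in stress of the endoplasmic reticulum, had 102.4 and 140.5 in the heterozygous pools against 85.3 and 115.6 in the wild-type pools. The last 2 overlapped between the genotypes.

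**Figure D4:**
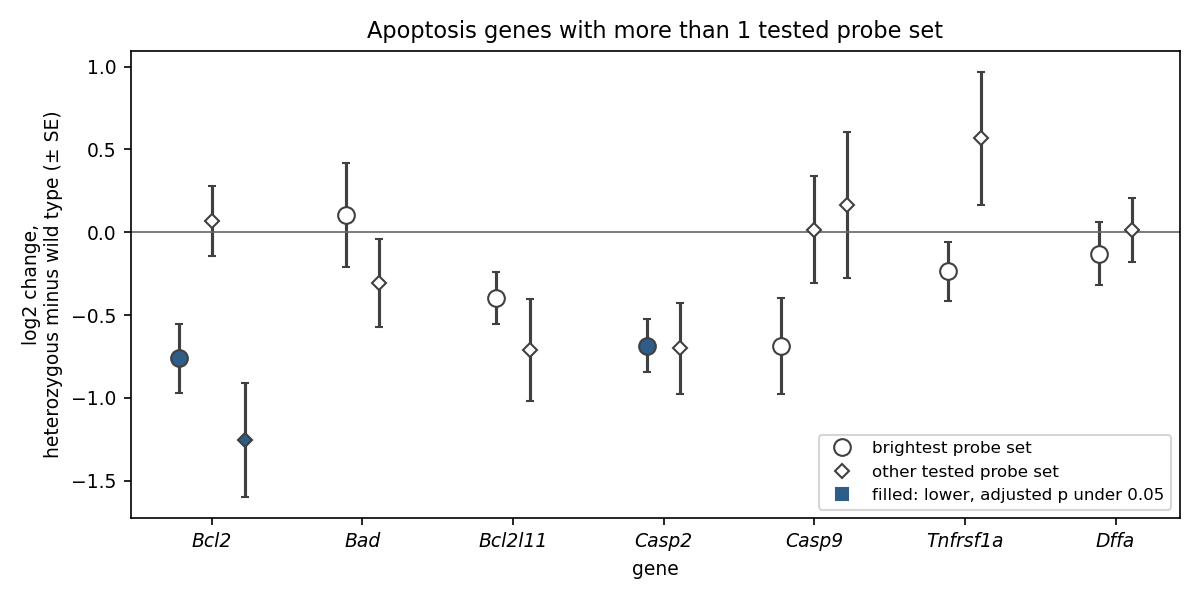
Log2 change, heterozygous minus wild type, with standard error for the 7 apoptosis genes with more than 1 tested probe set. Large circles are the brightest probe set and small diamonds the others. Both probe sets of Casp2 lie near -0.7, while those of Bcl2 run from -1.25 to 0.07 and those of Casp9 from -0.69 to 0.16. The lowest of Bcl2 passed the signal limit only through wild-type pools, and the highest of Casp9 only through heterozygous pools.

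In the death receptor arm, Fas, the receptor through which lymphocytes are killed at the end of an immune response, had 449.5 and 363.9 in the heterozygous pools against 1088.6 and 1160.2 in the wild-type pools. The groups did not overlap, and Fas fell 2.78-fold (log2 change -1.47, SE 0.24, adjusted p = 0.00162). A control probe set for Fas, which entered no test, had 575 in heterozygous pool 1 against 896.7 and 1253.5 in the wild-type pools and no value in heterozygous pool 2. Fasl, the ligand, was untested, with 30.2 and 24.9 in the heterozygous pools against 218.6 and 33 in the wild-type pools, so that wild-type pool 1 alone stood high.

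Fadd, the adaptor between Fas and caspase 8, had 658.9 and 762.3 in the heterozygous pools against 634.5 and 649.3 in the wild-type pools (log2 change 0.14, SE 0.23, adjusted p = 0.662). Tnfrsf1a, the main receptor of tumour necrosis factor, had 1654.6 and 1739.8 in the heterozygous pools against 1803.4 and 2215.8 in the wild-type pools (log2 change -0.24, SE 0.18, adjusted p = 0.326). Its dimmer probe set gave 0.57 (SE 0.40) and overlapped. Cflar, or c-FLIP, which blocks caspase 8 at the receptor, had 594 and 473.2 in the heterozygous pools against 725.7 and 716.6 in the wild-type pools (log2 change -0.44, SE 0.25, adjusted p = 0.191). None of these 3 genes passed, although the pools of their brightest probe sets did not overlap; 70.7% of all tested genes share that property.

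Inhibitors of apoptosis are ubiquitin ligases that act on caspases and on signalling downstream of tumour necrosis factor. Birc3 had 567.3 and 503.4 in the heterozygous pools against 1012.9 and 840.6 in the wild-type pools. The 1.73-fold decrease (log2 change -0.79, SE 0.23, adjusted p = 0.0266) did not pass when any one of the 4 pools was left out (-0.92 to -0.65), nor under quantile normalization (-0.61), a common median (-0.61) or cyclic loess (-0.69). Birc2, its close relative, had 1028.4 and 1211.8 in the heterozygous pools against 1294 and 1656.4 in the wild-type pools and did not pass (log2 change -0.39, SE 0.20, adjusted p = 0.160). Xiap, which binds caspases directly, had 237.9 and 294.9 in the heterozygous pools against 315.9 and 328.5 in the wild-type pools on the brightest of 3 dim, untested probe sets. Diablo, which is released from mitochondria to counter these inhibitors, was likewise untested, at 119.7 and 98.7 in the heterozygous pools against 101 and 70.9 in the wild-type pools.

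Among proteins that leave mitochondria or cut DNA, Aifm1 differed. It encodes apoptosis-inducing factor, which in healthy cells supports the respiratory chain. Aifm1 had 8010.3 and 9599 in the heterozygous pools against 6026.4 and 6775.3 in the wild-type pools and rose 1.37-fold (log2 change 0.46, SE 0.15, adjusted p = 0.0431). The call ended without heterozygous pool 1 (0.59), heterozygous pool 2 (0.33) or wild-type pool 1 (0.37), and under quantile normalization (0.36) and cyclic loess (0.30). Centring on the sarcomere genes gave -0.23. Cardiomyocyte markers, with a median log2 change of 0.63, were higher in the same pools, and their part in the change of Aifm1 or Bnip3 was not tested.

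Endog, a mitochondrial nuclease, had 388.4 and 286.4 in the heterozygous pools against 547.6 and 511.4 in the wild-type pools (log2 change -0.67, SE 0.32, adjusted p = 0.132). Dffa, the chaperone and inhibitor of the caspase-activated nuclease, had 3490 and 2505.6 in the heterozygous pools against 3329 and 3138 in the wild-type pools (log2 change -0.13, SE 0.19). Cidea, a lipid droplet protein related to Dffa in sequence, had 11191.2 and 8368.2 in the heterozygous pools against 11642.7 and 9811.8 in the wild-type pools (log2 change -0.14, SE 0.17). Endog was apart between the genotypes without passing, and the other two overlapped. Dffb, the nuclease itself, and Cideb were untested. Dffb had 163.4 and 49.2 in the heterozygous pools against 117.9 and 113.4 in the wild-type pools, and Cideb had 353.2 and 152.2 in the heterozygous pools against 66.7 and 99.7 in the wild-type pools.

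Pdcd4, which inhibits the translation factor eIF4A, had 2527.5 and 2518.4 in the heterozygous pools against 7313.2 and 8903.1 in the wild-type pools. The heterozygous pools lay close together and far below the others, a 3.20-fold decrease (log2 change -1.68, SE 0.16, adjusted p = 0.000101). This was the smallest adjusted p of the 25 genes. Pdcd6, a calcium-binding protein also known as ALG-2, had 2670.8 and 2279.5 in the heterozygous pools against 2776.2 and 3192.1 in the wild-type pools (log2 change -0.27, SE 0.17, adjusted p = 0.236) and did not pass.

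**Figure D5:**
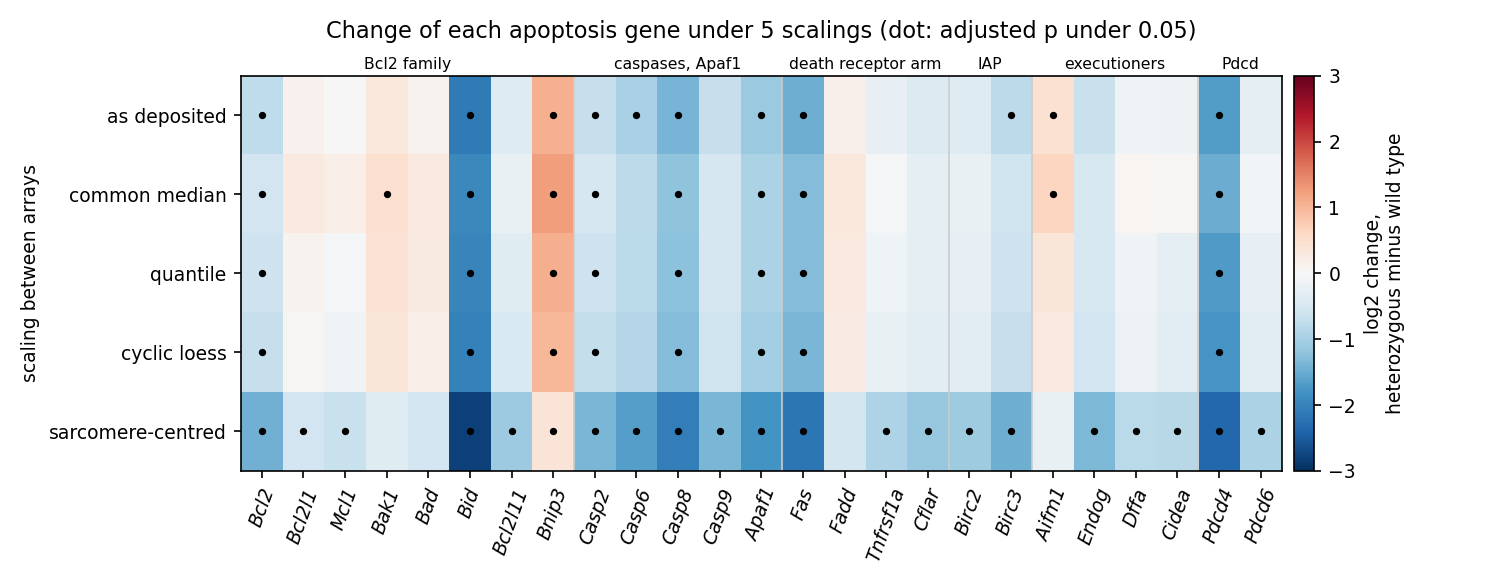
Log2 change, heterozygous minus wild type, of the 25 apoptosis genes under 5 scalings between arrays, as colours from blue (lower) to red (higher). Dots mark an adjusted p under 0.05. Bid, Casp8, Apaf1, Fas and Pdcd4 are dotted as lower and Bnip3 as higher in every line, as are Bcl2 and Casp2 as lower, while centring on the sarcomere genes adds dots to most other genes.

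Other genes of the same pathways were called in both directions, and their counts stand beside 19.5% of all tested genes called in each direction. Of 21 further core apoptosis genes tested, 4 rose and 2 fell (median log2 change 0.07). Those that fell were Birc5, an inhibitor of apoptosis family member that works in cell division (log2 change -2.44), and Gzma, a protease of killer lymphocytes (-2.36). Gzma had 263.1 and 185.3 in the heterozygous pools, under the limit of 348.95 for testing. It was tested only through its wild-type pools (1300.4 and 986.9). Those with the smallest p among the risers were Dapk2, a death-associated kinase (0.91, adjusted p = 0.00600), and Bok, a relative of Bax and Bak1 (0.74, adjusted p = 0.0267). The others were Bag1 (0.54) and Bcl2l13 (0.56).

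In the list of tumour necrosis factor and death receptor signalling, 2 of 20 tested genes rose and 3 fell (median -0.05). Ltb, a lymphotoxin of lymphocytes, had a log2 change of -2.26, the adaptors Traf6 and Tradd had -1.74 and -1.03, and the kinase Map3k5 had 0.70. Of 22 tested targets and regulators of p53, 5 rose and 2 fell (median -0.05). Chek1, a checkpoint kinase of dividing cells, had a log2 change of -2.11 and Mdm4, an inhibitor of p53, had -0.95. The heterozygous signals of Chek1 (362 and 322.1) lay on both sides of the limit of 348.95 for testing, with their mean under it. Chek1 was tested only through its wild-type pools (1504.5 and 1447.2) and could only appear lower. Sesn1 and Perp, both induced by p53, had 0.63 and 0.61. Of 15 tested survival kinase and growth factor genes, 2 rose and 4 fell (median 0.07). Pik3cd, the leukocyte form of phosphoinositide 3-kinase, had the lowest value (-3.16), Pim1 and Pdpk1 had -1.05 and -1.17, and Ppp3ca, the catalytic subunit of calcineurin, had 0.98. Pik3cd had 112.8 and 74.4 in the heterozygous pools, under the limit of 348.95 for testing. It was tested only through its wild-type pools (936.9 and 711.1), so its value rests on a dim heterozygous signal. The 3 tested genes of the inflammasome list did not pass (limma; 0 of 3 had an unadjusted p under 0.05). The median log2 change of T cell and thymus markers in the same pools was -3.16.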

How the data were processed

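The authors deposited 1 linear intensity for every probe set of each of 4 arrays (2 heterozygous and 2 wild-type pools). The sources used here do not name the summarising software, and the gene in which mice were heterozygous is not reported here. Trimmed means (2% removed at each end) of the deposited intensities ran from 1486.94 to 1501.19, with the highest 1.01 times the lowest, so the values were used as deposited. The lowest was that of heterozygous pool 2, whose control probe sets have no value. Without control probe sets the trimmed means of the 4 pools ran from 1486.5 to 1488.07. All 66 control probe sets (of 12488) lacked a value in heterozygous pool 2 and were removed.

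Log2 was taken after a floor at the 10th percentile (36.25), which changed no tested value of an apoptosis gene. The dimmest 40% of probe sets by mean were left out, and 7453 were fitted with limma 3.58.1 in R 4.3.3 (lmFit, eBayes with trend), with genotype as the only term. P-values are two-sided and adjusted by Benjamini-Hochberg over all 7453, with a threshold of 0.05. No detection calls came with the intensities. The number of arrays limits the precision.

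Platform annotation gave 1 symbol to 10855 probe sets, several to 396 and none to 1237; only the first were named, and 10839 matched GRCm38.p6 by gene ID. A gene was counted by its brightest tested probe set. Every listed member was named, and from other lists the called genes with the smallest p. The members and lists were chosen with earlier results of these data known, so no p was adjusted over the list and no set test was run. In ratios of pairs, those with Bax, Xiap or Dffb were not run, as these genes had no tested probe set.

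Alternatives were other scalings, floors, dim filters, moderations, thresholds and probe set summaries, the pool number as a block, and each pool left out in turn. On simulated data for 7453 probe sets, the fit recovered 35.8% of 1.5-fold, 91% of 2-fold and all 4-fold changes, with 3.21% of its calls false, a rate that does not carry over to data in which 38.3% of probe sets are called. Plots were drawn with matplotlib 3.10.9.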

Additional observations from a re-analysis of the deposited data

How the results depend on the processing

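The main analysis called 2856 probe sets over the array, and among apoptosis genes 2 higher and 9 lower. Bid, Fas and Apaf1 (16 of 16 alternatives that tested them) and Pdcd4 and Bnip3 (17 of 17) kept their call. With arrays centred on the sarcomere genes, 4352 probe sets were called, 1 apoptosis gene higher and 20 lower, and log2 changes turned to -0.23 for Aifm1, -0.67 for Mcl1, -0.56 for Bcl2l1, -0.37 for Bak1, -0.54 for Fadd and -0.58 for Bad. This centring lowered the median of all tested probe sets to -0.68 by construction. The median of all moved to 0.10 under quantile normalization and 0.18 with a common median, where 62.5% of calls were higher in place of 46.8%, and that of the apoptosis genes was -0.28 and -0.22. Higher apoptosis genes numbered 1 under quantile normalization, cyclic loess, eBayes without trend and with the lowest 20% left out. Mcl1 turned to -0.056 under quantile normalization and -0.12 under cyclic loess, and with a common median Cidea turned to 0.036 and Dffa to 0.051. Without the filter on dim probe sets 1206 were called, with 1 apoptosis gene higher and 4 lower. With the lowest 60% left out, which tests 14 of these genes, 3 were lower. At a threshold of 0.01, 1659 probe sets were called, with 1 apoptosis gene higher and 4 lower. With probe sets of a gene averaged, Tnfrsf1a turned to 0.17 and Bad to -0.10.

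Leaving out each pool in turn gave 1707 to 2289 probe sets called, 1 to 2 apoptosis genes higher and 4 to 6 lower. The arm with 1 pool was then assumed to vary like the other. Values that turned ranged, over the pools left out, from -0.16 to 0.19 for Mcl1, -0.057 to 0.30 for Bcl2l1, -0.35 to 0.066 for Cidea, -0.37 to 0.11 for Dffa and -0.31 to 0.52 for Bad. Without heterozygous pool 2, Mcl1 was at -0.0074 and Bad at -0.061, and without wild-type pool 1 they were at -0.16 and -0.31. Apart from what each setting leaves out or shifts by construction, the cause was not tested.

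The pools share numbers only, which the labels do not tie to a litter, batch or day; deviations of same-numbered pools correlated at 0.16. With the pool number as a replicate block, 3035 probe sets were called, and apoptosis genes again numbered 2 higher and 9 lower.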
